A study of Anas platyrhynchos with 5 samples.

Results

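The miRNAs described here are the products of 4 duck hairpins, mir-15c-1, mir-15c-2, mir-103-1 and mir-103-2, which carry the miR-15 and miR-103 seeds. All mature lines listed under these hairpins were taken, which gave 8 of the 134 mature miRNAs listed over the series, 2 arms per hairpin. The choice used names and not measured values, but it was made with earlier results of these data known.

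Small RNA was sequenced from feather bulbs, the follicular base of the growing feather, of 12-month-old ducks (Anas platyrhynchos), and the series compares black with white bulbs. Black bulbs gave 2 libraries, one of pure black Cui Hei ducks (black replicate 1) and one from the black feathers of white-black ducks of the Kaiya-Liancheng F2 cross (black replicate 2). White bulbs gave 3 libraries, from the pure white Kaiya (white replicate 1) and Liancheng (white replicate 2) breeds and from the white feathers of the white-black F2 ducks (white replicate 3). Each library is a pool of birds, with 3 bulbs taken per duck, and how many birds were pooled is not stated. The p-values below therefore describe the spread between pools, which may be technical in part. Within each colour every pool is of a different breed or cross, so that spread also holds differences between breeds and stocks. Both F2 libraries come from white-black ducks and may share birds, but they are treated as separate pools. In the pure breeds colour cannot be told apart from breed.

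Animal miRNAs are cut from a hairpin precursor as a duplex of a 5p and a 3p strand. One strand is usually kept in the Argonaute protein, where its seed, the bases near its 5′ end, pairs with target mRNAs, and the other strand is mostly degraded. miRNAs of the miR-15 and miR-16 type are known in mammals to repress cell cycle and survival genes such as cyclins D and E and BCL2. Those of the miR-103 and miR-107 type are known in mammals for repressing DICER1, which encodes the enzyme that makes mature miRNAs, and for effects on insulin signalling. Both types are grouped into 1 superfamily because their 5′ ends share the same short string.

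The 4 major arms are shown first, because the shared 5′ end defines the superfamily. Capitals mark the seed, bases 2 to 8 from the 5′ end.
miR-15c-1-5p: uAGCAGCAcaucaugguuugua
miR-15c-2-5p: uAGCAGCAcguaaauauuggug
miR-103-1-3p: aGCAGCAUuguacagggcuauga
miR-103-2-3p: aGCAGCAUuguacagggcuauc
The miR-15c arms share 1 seed and the miR-103 arms another. The seeds overlap with an offset of 1 base, since the 7-base string AGCAGCA starts at base 2 in the miR-15c arms and at base 1 in the miR-103 arms. Among all 134 listed mature sequences, 4 held AGCAGC within bases 1 to 8, and they were these 4 arms. A search by name for the rest of the superfamily (miR-15, miR-16, miR-107, miR-195, miR-424, miR-497, miR-503 and miR-457) found 0 further miRNAs in the tables.

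The paired copies are not equally alike. miR-15c-1-5p and miR-15c-2-5p were identical over their first 9 bases and differed at 7 of 22 positions. miR-103-1-3p and miR-103-2-3p were identical over their first 21 bases and differed by 1 substitution, G22C, counted from the 5′ end with the base of miR-103-1-3p first. In other vertebrates, sequences close to those listed for mir-15c-2 and mir-103-2 are known as miR-16 and miR-107. The names used here are those of the files, and no duck miRNA annotation was used. The hairpins as listed are given next, with both mature arms in capitals, to show where each arm lies.
mir-15c-1: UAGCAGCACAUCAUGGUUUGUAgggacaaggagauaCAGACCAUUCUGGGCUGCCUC
mir-15c-2: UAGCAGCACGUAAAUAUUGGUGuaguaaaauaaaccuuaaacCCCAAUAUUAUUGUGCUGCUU
mir-103-1: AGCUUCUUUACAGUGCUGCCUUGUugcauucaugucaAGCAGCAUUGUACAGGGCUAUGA
mir-103-2: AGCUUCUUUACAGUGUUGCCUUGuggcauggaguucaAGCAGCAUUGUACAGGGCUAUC
The mir-15c hairpins differed by 27 edits (substituted, inserted or deleted bases) and the mir-103 hairpins by 8. Their predicted minimum free energies lay between -20.9 kcal/mol (mir-15c-2) and -23.5 kcal/mol (mir-103-1). In the predicted folds all 7 seed bases of the major arm were paired in mir-15c-2, mir-103-1 and mir-103-2, and 5 in mir-15c-1. Each listed hairpin ends with the last base of its 3p arm. A read cut short before base 22 would match both miR-103 3p arms equally, so the reads of these copies cannot be fully separated. How the counting divided such reads is not given in the sources used.

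The depth in mature miRNA reads ran from 1601329 in Liancheng to 4269854 in Kaiya. A floor of 3 reads corresponds to 0.703 to 1.87 CPM, the reads of a miRNA scaled to a common library total. Reads carry no molecular identifiers, and all intervals and floors cover counting error only. The colour labels were checked with the melanocyte-linked miR-204-5p (1 of 2 families, miR-211 was not listed). It was picked with earlier results of these data known. Its levels were 8785 and 11700 CPM in the black libraries and 104 to 120 CPM in the white ones. Those levels were scaled by TMM, a normalization that sets typical miRNAs equal between libraries, and the sums that follow are unscaled CPM. Of the epithelial families 3 of 4 were listed (miR-203 was not), summing to 77580 to 88390 CPM. The endothelial miR-126 arms summed to 10950 to 17780 CPM, the erythroid miR-144 arms (1 of 2 families) to 80.6 to 488 CPM and the muscle-linked miR-499 arms (1 of 4 families) to 21.1 to 72.8 CPM. The leukocyte (2 families) and liver (1 family) lists had 0 listed members.

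The 8 miRNAs together took about 1% of the miRNA reads. Their summed share was 1.20% in Cui Hei (95% Clopper-Pearson interval 1.19% to 1.21%), 1.10% in black F2 bulbs (1.09% to 1.11%), 1.03% for Kaiya (1.02% to 1.04%), 1.14% for Liancheng (1.12% to 1.15%) and 1.07% in white F2 bulbs (1.06% to 1.08%). By mean share over the libraries miR-15c-1-5p ranked 23 of 134, miR-103-1-3p 27, miR-15c-2-5p 33 and miR-103-2-3p 43. The minor arms ranked 105 (miR-15c-2-3p), 123 (miR-15c-1-3p), 125 (miR-103-2-5p) and 129 (miR-103-1-5p). The order of the 4 major arms was the same in all 5 libraries, and their ranges of level did not overlap. Counts of different miRNAs are compared here per molecule, since a read covers a whole mature miRNA, but capture in library preparation can differ between sequences.

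The most abundant member was miR-15c-1-5p, which bears the miR-15 seed. It had 19900 reads in Cui Hei, 10149 in black F2, 19958 in Kaiya, 8763 in Liancheng and 11812 in white F2 bulbs. As TMM-scaled CPM its levels were 5343 and 4889 in black and 4852, 5427 and 4514 in white bulbs, in the same order. The highest and the lowest library were both white, and the groups overlapped. Over all libraries it stood at 5005 ± 378 CPM (SD, n = 5), a coefficient of variation of 7.55%, which was the 10th lowest of 90 miRNAs with at least 50 reads in every library. The median over the 114 tested miRNAs, which include some with fewer reads, was 17.7%.

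The other miR-15c arm with this seed, miR-15c-2-5p, had 5753 reads in Cui Hei, 3652 in black F2, 6946 in Kaiya, 3168 in Liancheng and 4761 in white F2 bulbs. Its levels were 1545 and 1759 CPM in the black libraries and 1688, 1962 and 1819 CPM in the white ones. Cui Hei was lowest and Liancheng highest, and black F2 lay within the white range. The mean was 1755 ± 155 CPM (SD, n = 5), a coefficient of variation of 8.82%, which ranked 16 from the lowest of the same 90 miRNAs.

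The main miR-103 product was miR-103-1-3p, with 12925 reads in Cui Hei, 6447 in black F2, 14151 in Kaiya, 5065 in Liancheng and 11072 in white F2 bulbs. Its levels were 3470 and 3106 CPM in black and 3440, 3137 and 4231 CPM in white bulbs. The white F2 library was the highest, and the other 4 lay between 3106 and 3470 CPM. miR-103-2-3p followed the same order at its top, with 3061 reads in Cui Hei, 1600 in black F2, 3012 in Kaiya, 1164 in Liancheng and 2752 in white F2 bulbs. Its levels were 822 and 771 CPM in black and 732, 721 and 1052 CPM in white bulbs. White F2 again stood above the others, and the groups overlapped. The means were 3477 ± 454 and 819.5 ± 136 CPM (SD, n = 5), with coefficients of variation of 13.1% and 16.6%. These ranked 33 and 50 from the lowest of the 90 miRNAs with at least 50 reads in every library.

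**Figure D1:**
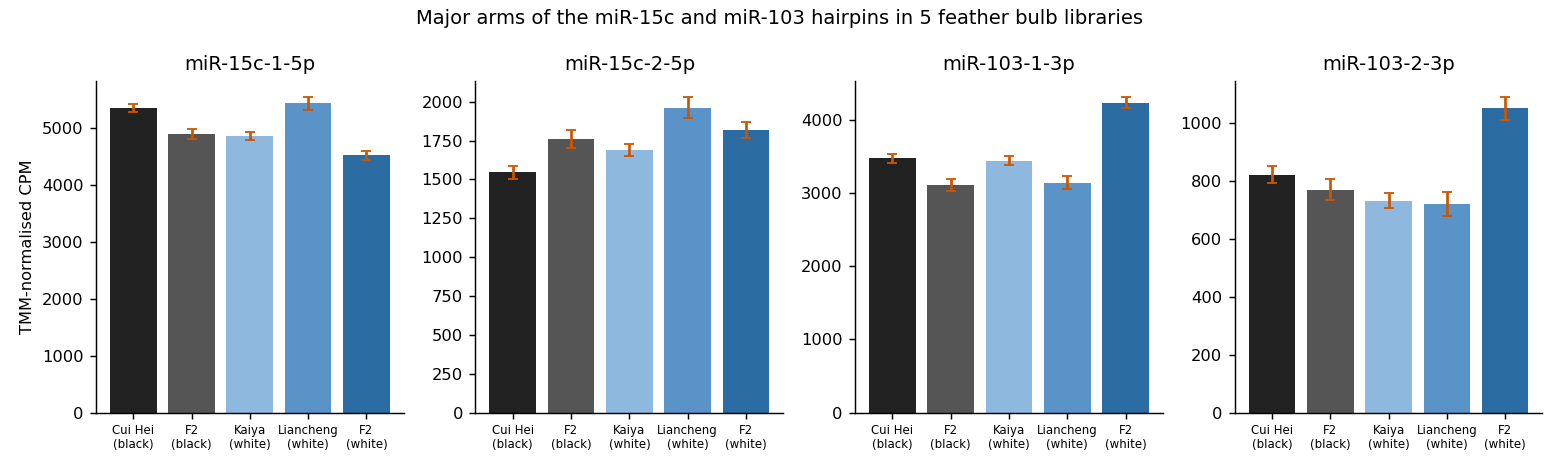
Levels of the 4 major arms in TMM-normalised CPM (y axes from 0, one scale per panel) in each library; error bars are 95% counting intervals. White F2 bulbs were lowest for miR-15c-1-5p (4514 CPM) and highest for miR-103-1-3p (4231 CPM) and miR-103-2-3p (1052 CPM).

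One arm dominated each hairpin, and the dominant arm differed between the families: 5p in miR-15c and 3p in miR-103. In mir-103-1 the 3p arm took nearly all reads, with 4 reads of miR-103-1-5p against 49660 of miR-103-1-3p over the 5 libraries, a minor share of 0.00805% (95% Clopper-Pearson interval 0.00219% to 0.0206%). In mir-15c-1 the 3p arm had 10 reads against 70582, a share of 0.0142% (0.00679% to 0.0261%). In mir-103-2 the 5p arm had 10 reads against 11589, a share of 0.0862% (0.0414% to 0.158%). The minor arm of mir-15c-2 was more frequent, with 115 reads of miR-15c-2-3p against 24280 of miR-15c-2-5p, a share of 0.471% (0.389% to 0.566%). Reads of the hairpins outside both arms numbered 0 for the mir-15c hairpins and 1 for each mir-103 hairpin.

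The minor share of mir-15c-2 lay above that of mir-15c-1 in every library, without overlap of the intervals. Against mir-103-2 the intervals overlapped in black F2, Liancheng and white F2, but not in Cui Hei and Kaiya. miR-15c-2-3p had 41 reads in Cui Hei, 15 in black F2, 29 in Kaiya, 16 in Liancheng and 14 in white F2 bulbs. Its share ran from 0.293% in white F2 (0.160% to 0.491%) to 0.708% in Cui Hei (0.508% to 0.959%). miR-15c-1-3p had 2, 0, 1, 2 and 5 reads in the same order of libraries, at or under the floor of 3 reads except in white F2. The 0 of 10149 reads in black F2 have a Clopper-Pearson upper bound of 0.0363%. miR-15c-2-3p is the minor arm that holds GCUGCU, the reverse complement of AGCAGC; the other 3 do not. miR-103-2-5p had 5, 0, 2, 2 and 1 reads and miR-103-1-5p 1, 1, 1, 0 and 1, so no order between libraries can be read for either. The 5p arms of the mir-103 copies differ by C16U, again with the base of the first copy first.

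**Figure D2:**
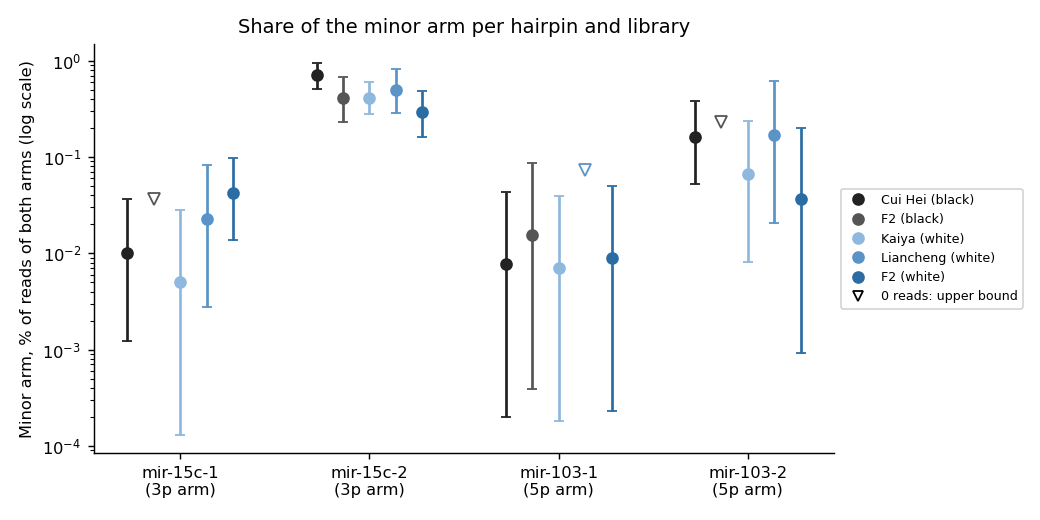
Share of the minor arm among the reads of both arms for each hairpin and library, on a log scale, with 95% Clopper-Pearson intervals; open triangles give the upper bound where 0 reads were found. The 3p arm of mir-15c-2 lies between 0.293% and 0.708%, above the intervals of mir-15c-1 in every library.

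The reads were divided between the copies in a similar way in all libraries, with less spread between libraries for miR-103 than for miR-15c. miR-103-2-3p took 19.2% of the reads of both miR-103 3p arms in Cui Hei (95% Clopper-Pearson interval 18.5% to 19.8%), 19.9% in black F2 (19.0% to 20.8%) and 17.6% for Kaiya (17.0% to 18.1%). In Liancheng it took 18.7% (17.7% to 19.7%) and in white F2 19.9% (19.2% to 20.6%). Kaiya was lowest, and its interval did not reach those of Cui Hei and the F2 libraries. miR-15c-2-5p took 22.4% of the reads of both miR-15c 5p arms in Cui Hei (21.9% to 22.9%), 26.5% in black F2 (25.7% to 27.2%), 25.8% for Kaiya (25.3% to 26.3%), 26.6% for Liancheng (25.8% to 27.4%) and 28.7% in white F2 (28.0% to 29.4%). Cui Hei and white F2 were the extremes, whereas black F2, Kaiya and Liancheng overlapped.

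These shares need no scaling between libraries. The log2 ratio of miR-103-1-3p to miR-103-2-3p had an SD of 0.0926 over the 5 libraries (mean 2.09), and of the 4005 pairs among 90 miRNAs with at least 50 reads in every library 1.40% had a smaller SD (median 0.349). The shared 21 bases, over which reads cannot be told apart, bear on this, and their part was not tested. For miR-15c-1-5p and miR-15c-2-5p the SD was 0.174 (mean 1.51), with 11.0% of pairs smaller. The 90 miRNAs include some with far fewer reads than these arms, where counting error adds more to the SD. The percentages of pairs were not matched for abundance. Among copies of the same arm in other families, the lowest SD was 0.138 (miR-30e-1-5p and miR-30e-2-5p) and the highest 0.885 (miR-10b-1-5p and miR-10b-2-5p). Between the families the SDs were larger than within them, from 0.230 (miR-15c-2-5p and miR-103-1-3p) to 0.306 (miR-15c-1-5p and miR-103-2-3p). Of all pairs, 22.3% and 40.5% had a smaller SD than these, respectively, so the ratios between the families also spread less than the median pair.

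In the balance between the miR-15c and miR-103 types, the miR-15c share was lowest in white F2 bulbs. Over the libraries the ratios between the families spread less than the median pair of miRNAs (SD 0.349). The miR-15c 5p arms made up 61.6% of the reads of the 4 major arms in Cui Hei (61.1% to 62.1%), 63.2% in black F2 (62.5% to 63.8%), 61.1% for Kaiya (60.6% to 61.5%), 65.7% for Liancheng (65.0% to 66.4%) and 54.5% in white F2 (54.0% to 55.1%). The ratio of the types was 1.20 in white F2 and 1.57 to 1.92 in the other libraries. White F2 also had the highest miR-499 level (72.8 CPM, against 21.1 to 61.9 CPM elsewhere), and its part in the balance was not tested. The summed epithelial level was 77580 CPM in white F2, 78310 CPM in Liancheng and 80560 to 88390 CPM in the other libraries. The part of the epithelial level in the balance was not tested either. With 1 library per colour in the cross, no spread between pools can be given for this difference.

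**Figure D3:**
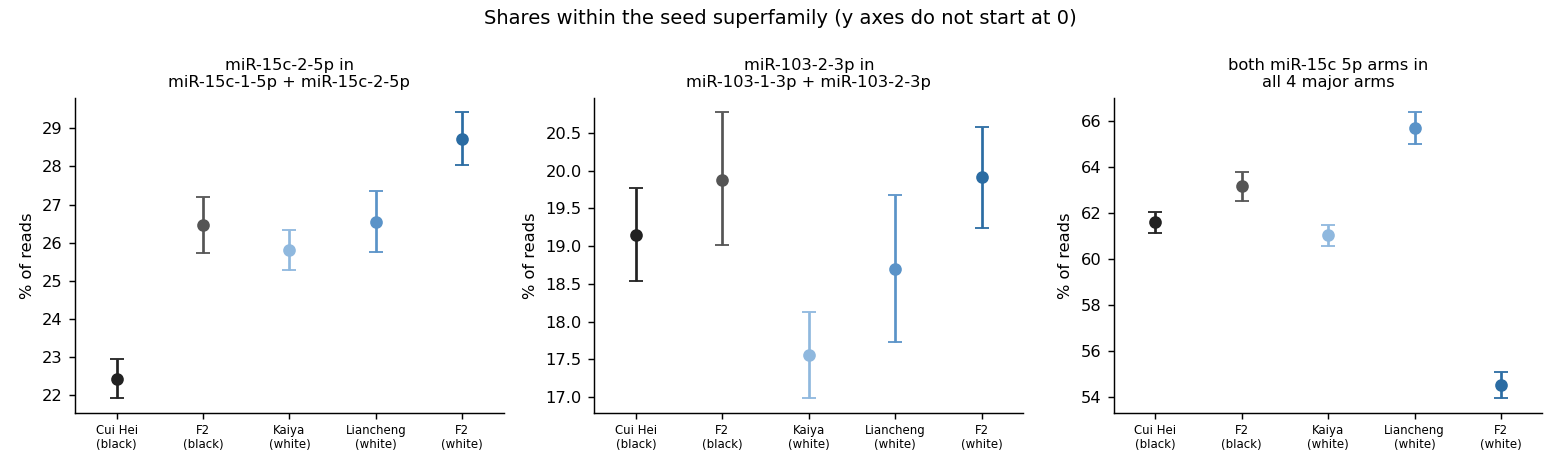
Shares of reads within the superfamily per library with 95% Clopper-Pearson intervals: miR-15c-2-5p among the miR-15c 5p arms, miR-103-2-3p among the miR-103 3p arms, and both miR-15c 5p arms among the 4 major arms; axes do not start at 0. In the right panel white F2 (54.5%) lies below the other libraries (61.1% to 65.7%).

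None of the members passed the test between black and white bulbs. With 2 against 3 libraries this does not show that they were unchanged. In bulk tissue fewer cells of a type and less RNA per cell cannot be told apart. In edgeR's quasi-likelihood test with Benjamini-Hochberg adjustment 5 of the 8 members passed the filter on low counts and were tested (the 4 major arms and miR-15c-2-3p), and 0 were called, against 1.75% of all 114 tested miRNAs (the 2 arms of miR-204). With an unadjusted p under 0.05 there were 0 members and 4 miRNAs in all, and DESeq2 also called 0 members. For miR-15c-1-5p the means were 5116 ± 321 CPM (SD, n = 2) in black and 4931 ± 462 CPM (SD, n = 3) in white, a log2 fold change of 0.05 ± 0.15 (SE). miR-15c-2-5p had 1652 ± 152 against 1823 ± 137 CPM and a log2 fold change of -0.14 ± 0.15. The values were -0.13 ± 0.18 for miR-103-1-3p (3288 ± 258 against 3603 ± 565 CPM) and -0.07 ± 0.22 for miR-103-2-3p (796 ± 36.1 against 835 ± 188 CPM). The low miR-15c-2-3p had 0.35 ± 0.35 (9.12 ± 2.67 against 7.44 ± 2.30 CPM). The adjusted p of all 5 was 0.971.

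The 5 estimates ranged from -0.14 to 0.35 with a median of -0.07, beside a median of -0.03 over all tested miRNAs and a median absolute value of 0.13. The groups overlapped for all 5. Among all miRNAs tested, black lay wholly above white in 7.02% and wholly below in 7.89%. With 5 members, the overlap cannot be told apart from these shares. The signs of some members changed with single libraries or with scaling. miR-15c-2-5p stayed negative in all alternatives (-0.27 to -0.01), and miR-103-1-3p stayed negative on leaving out each library. Without white F2, miR-103-2-3p had 0.12 and miR-15c-1-5p -0.02, and miR-103-1-3p had -0.01. Without Cui Hei miR-15c-2-3p had -0.0017 and miR-15c-2-5p -0.03. With library size alone, which moved the median of all miRNAs to 0.10, miR-103-1-3p had 0.01 and miR-103-2-3p 0.07; upper-quartile scaling moved it to -0.16, with miR-15c-1-5p at -0.07.

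Stock, the F2 cross against the pure breeds, was compared in the same way with bulb colour as a covariate, and again no member passed. edgeR called 0 of 114 miRNAs (0%) and 0 of the 5 tested members, and DESeq2 called 0 as well. The unadjusted p was under 0.05 for 7 miRNAs by edgeR and 8 by DESeq2, with 0 members by either. The miR-103 arms had positive estimates, 0.14 ± 0.19 (SE) for miR-103-1-3p and 0.27 ± 0.21 for miR-103-2-3p, from 3668 ± 796 and 911 ± 199 CPM in F2 (SD, n = 2) and 3349 ± 184 and 758 ± 55.3 CPM in pure-breed bulbs (SD, n = 3). Without the white F2 library they were -0.19 and -0.12. Without Cui Hei they were 0.37 and 0.54, and without Liancheng miR-103-1-3p had -0.03.

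For the miR-15c arms the values were -0.16 ± 0.15 for miR-15c-1-5p (4702 ± 265 against 5207 ± 311 CPM), 0.08 ± 0.17 for miR-15c-2-5p (1789 ± 42.6 against 1732 ± 212 CPM) and -0.62 ± 0.32 for miR-15c-2-3p (6.29 ± 1.33 against 9.32 ± 2.04 CPM). On leaving out Cui Hei miR-15c-2-5p had -0.0020, and on leaving out black F2 -0.12. The adjusted p-values by edgeR were between 0.747 and 0.911. The groups overlapped for each of the 5. Among all miRNAs tested, F2 lay wholly above the pure breeds in 18.4% and wholly below in 10.5%. Too few members were tested to tell their overlap apart from these shares.

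**Figure D4:**
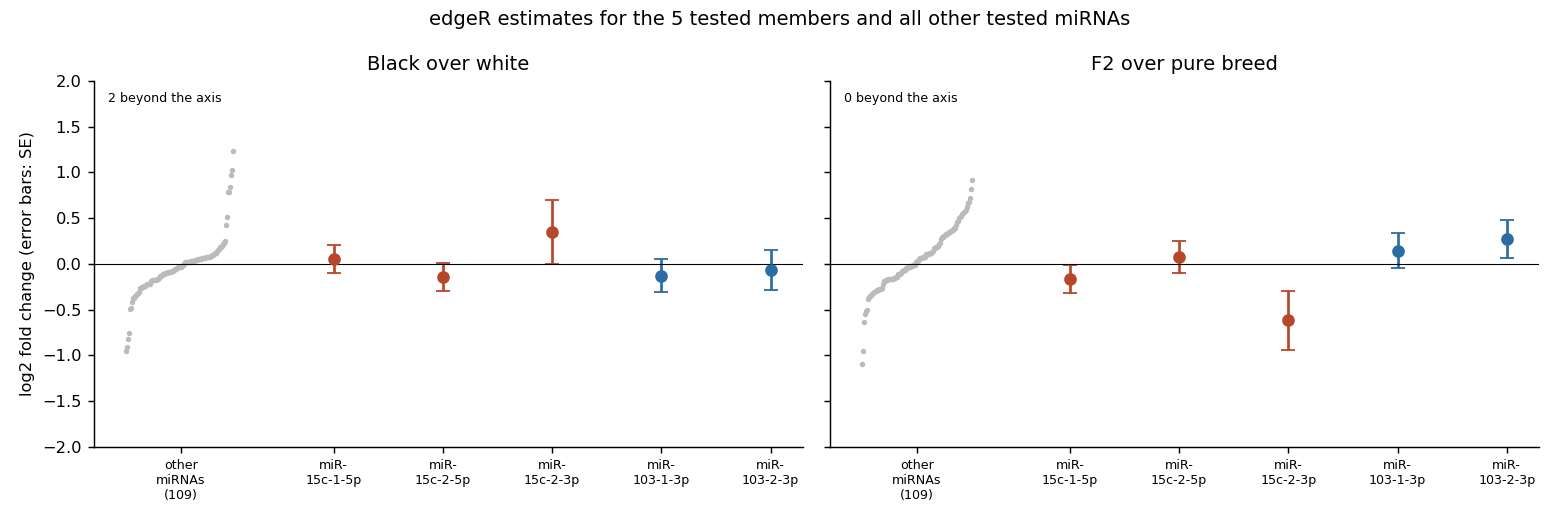
edgeR log2 fold changes with SE for the 5 tested members (miR-15c in red, miR-103 in blue) beside the other 109 tested miRNAs (grey, sorted), for black over white and for F2 over pure breed. The members lie between -0.14 and 0.35 in the first and between -0.62 and 0.27 in the second comparison, and the 2 points beyond the axis are the miR-204 arms.

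The arm balance could be tested for mir-15c-2 alone of the 4 hairpins, since the others had under 50 reads on the minor arm. The log2 of its 5p reads over its 3p reads was 7.12 and 7.88 in the black libraries (Cui Hei, F2) and 7.88, 7.59 and 8.36 in the white ones (Kaiya, Liancheng, F2). The groups overlapped, with a mean of 7.50 ± 0.54 in black (SD, n = 2) and 7.94 ± 0.39 in white (SD, n = 3). The difference of -0.44 ± 0.34 (SE) did not pass in limma (adjusted p 0.927), which called 2.17% of 46 hairpins (mir-204). On leaving out a library it was -0.06 without Cui Hei, -0.23 without white F2, -0.62 without Liancheng and -0.83 without black F2.

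Within the F2 cross the miR-103 arms had lower TMM-normalised levels in black than in white bulbs, while the ratios of the miR-15c arms lay near zero. In the same pair the erythroid miR-144 arms summed to 408 (black) against 205 CPM (white) and the miR-126 arms to 17780 against 13960 CPM, and their part in these ratios was not tested. miR-103-1-3p had a log2 ratio of black over white of -0.45 (95% counting interval -0.49 to -0.40) and miR-103-2-3p one of -0.45 (-0.54 to -0.36). miR-15c-1-5p had 0.12 (0.08 to 0.15) and miR-15c-2-5p -0.05 (-0.11 to 0.01). None reached a log2 ratio of 1 in either direction, the size the series asks for, which 4.21% of 95 miRNAs with at least 50 reads in both libraries did. By absolute ratio the miR-103 arms ranked 23 and 24 of 95, and the median absolute ratio was 0.24. With library size alone the ratios were -0.26 and -0.27 for the miR-103 arms and 0.30 and 0.13 for miR-15c-1-5p and miR-15c-2-5p.

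Among the pure breeds the differences between single libraries were smaller for miR-103 and of another pattern for miR-15c. Cui Hei over Kaiya gave 0.01 (-0.02 to 0.05) for miR-103-1-3p and 0.17 (0.09 to 0.24) for miR-103-2-3p. Cui Hei over Liancheng, which shares the Cui Hei library with it, gave 0.15 (0.10 to 0.19) and 0.19 (0.09 to 0.29). For miR-15c-2-5p the ratios were -0.13 (-0.18 to -0.08) to Kaiya and -0.35 (-0.41 to -0.28) to Liancheng, and for miR-15c-1-5p 0.14 (0.11 to 0.17) and -0.02 (-0.06 to 0.01). No member reached the size criterion, against 3.96% of 101 and 6.59% of 91 miRNAs. The low miR-15c-2-3p, under 50 reads, had 0.64 (-0.08 to 1.38) to Kaiya, 0.15 (-0.71 to 1.08) to Liancheng and 0.43 (-0.72 to 1.60) within the F2 cross, with all intervals spanning 0.

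Kaiya and Liancheng, both white, differed by up to 0.22 in absolute log2 ratio in these arms. Kaiya over Liancheng gave -0.16 (-0.20 to -0.13) for miR-15c-1-5p, -0.22 (-0.28 to -0.16) for miR-15c-2-5p, 0.13 (0.09 to 0.18) for miR-103-1-3p and 0.02 (-0.08 to 0.12) for miR-103-2-3p. None reached the size criterion, which 10% of 90 miRNAs did, and the median absolute ratio was 0.26.

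**Figure D5:**
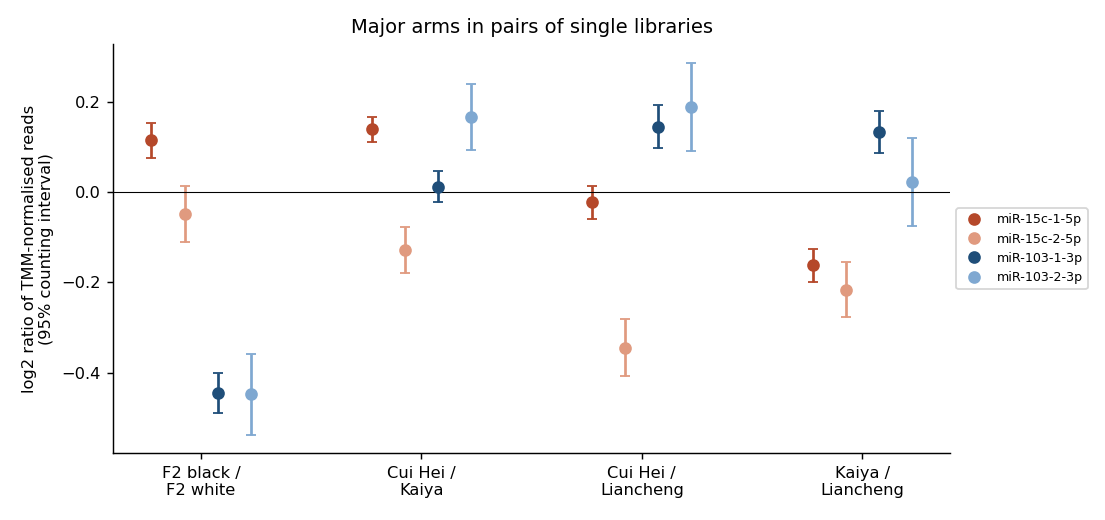
log2 ratios of TMM-normalised reads of the 4 major arms in 4 pairs of single libraries, with 95% counting intervals that do not cover the spread between pools. The miR-103 arms are at -0.45 in the F2 pair and between 0.01 and 0.19 in the Cui Hei pairs.

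The miRNAs with the most similar pattern over the 5 libraries were found by the root mean square difference of centred log2 levels, a measure of likeness that is lower for more similar patterns. For miR-15c-1-5p the 3 nearest non-members were miR-106-2,3-3p (0.0488), miR-106-3-3p (0.0490) and miR-218-5p (0.0601), against a median of 0.226 over 89 miRNAs. The miR-106 entries are both listed under the hairpin mir-106-3. They had equal levels in 4 of the 5 libraries, with 172 and 171 reads in Liancheng, so they are not separate neighbours. The family copy of miR-15c-1-5p, miR-15c-2-5p, came in place 26 (0.156). For miR-103-1-3p the nearest were miR-6612-3p (0.0716) and miR-128-5p (0.0823), then its copy miR-103-2-3p in place 3 (0.0828) and miR-367-3p (0.0891), against a median of 0.262. Counting error was not set against these distances. miR-128-5p had 83 to 258 reads per library and miR-106-2,3-3p 172 to 407, so the order of close values is not certain. The measure also places miRNAs of little variation near each other, and miR-15c-1-5p varied little. Like miR-103-1-3p, miR-6612-3p had its highest level in white F2, at 3021 CPM, and 2224 to 2518 CPM elsewhere.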

How the data were processed

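The deposited tables list hairpins with their mature miRNAs, and the values used are raw read counts per mature miRNA as deposited by the authors. Counts were made with miRDeep2 2.1.2 per the series' design text, and FastQC and Bowtie 0.12.2 were used per the submitters' processing notes. No genome build is named there. The authors' CPM, also deposited, were checked against the raw counts and not used. Where several hairpins list one name, the line with the highest count was kept, and a hairpin not listed for Kaiya was set to 0. Keeping 1 line left the reads of every member unchanged but lowered the library totals behind the shares, in Cui Hei from 3943654 to 3476838 reads. With summed lines the estimates of the members moved, as for miR-15c-1-5p between stocks from -0.16 to -0.23. The miR-15c-1 sequences were blank or shifted in 1 table and taken from the other 4.

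Tests were edgeR 4.0.16 (TMM, filterByExpr, quasi-likelihood, threshold 0.05) over all miRNAs and limma 3.58.1 for log2 ratios of the arms (pseudocount 0.5, at least 50 reads per arm over the libraries), in R 4.3.3. Each SE is the fitted change divided by the root of F. Ratios of single libraries have exact conditional counting intervals and no test. Folds were predicted with RNAfold 2.7.2. The scripts were tested on simulated data without breed differences, and no smallest detectable change is given. Alternatives were other scalings and filters, DESeq2 1.42.0, stock as a block, and leaving out each library. Named are all members and, per family, the 3 most similar non-members. Members and lists were chosen with earlier results of these data known.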

Additional observations from a re-analysis of the deposited data

Results flagged for a closer look

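The ratios of black over white of the miR-103 3p arms had opposite signs in the cross and in the pure breeds. For miR-103-1-3p the log2 ratio of black over white was -0.45 in the F2 pair, 0.013 for Cui Hei over Kaiya (counting interval -0.02 to 0.05, which spans 0) and 0.15 for Cui Hei over Liancheng. For miR-103-2-3p the values were -0.45, 0.17 and 0.19. The difference between the stocks was not tested, the Cui Hei pairs share 1 library, and reads cut before base 22 would match both miR-103 copies. Opposite signs between the F2 pair and both Cui Hei pairs, in either direction, were found in 19 of 90 miRNAs (21.1%), which include both miR-103 arms. No separate count is given for the direction seen in the miR-103 arms.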

How the results depend on the processing

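No member was called under any alternative run. The tested values that turned direction had adjusted p-values of 0.911 to 0.9997 in edgeR, and the cause was not tested. Between colours these were miR-15c-1-5p with upper-quartile scaling (-0.073), miR-103-1-3p (0.0095) and miR-103-2-3p (0.075) with library size alone, and miR-103-2-3p without the miR-204 arms (0.0040). Between stocks it was miR-15c-2-5p without a filter (-0.0023). Of the ratios of single libraries, which have no test, library size alone turned miR-15c-2-5p in the F2 pair from -0.05 to 0.13 and miR-103-2-3p in Kaiya over Liancheng from 0.02 to -0.04. Leaving out a library gave -0.017 to 0.15 for miR-15c-1-5p, -0.0017 to 0.59 for miR-15c-2-3p and -0.17 to 0.12 for miR-103-2-3p between colours. Between stocks it gave -0.12 (without black F2) to 0.16 for miR-15c-2-5p, with -0.0020 without Cui Hei, -0.19 to 0.37 for miR-103-1-3p, with -0.029 without Liancheng, and -0.12 to 0.54 for miR-103-2-3p. The count of miRNAs called between colours, 2, was 0 without the miR-204 arms, which are the called ones, and 2 to 3 on leaving out a library. The arm count of 1 was 0 with 200 reads per arm and 0 to 1 on leaving out a library. Summing lines cannot change the shares of the copies, since each member has 1 line. The replicate numbers only follow the order of the libraries and give no pairs. The black and white F2 libraries both come from white-black ducks and may share birds. They form a single pair, so no paired test could be run. Stock as a block changed no call. Depth limits the minor arms: 3 of the 4 had 0 to 5 reads per library.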
